A study of Homo sapiens with 2 samples.

Results

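Genes of DNA replication and nucleotide supply were compared between MM.1S cells, an established human multiple myeloma line, cultured with plasmacytoid dendritic cells (pDCs) and MM.1S cells cultured alone. The genes were chosen by name, with earlier results of these data known. The 49 members include origin licensing factors (15), fork proteins (17) and polymerase and primase subunits (6). The rest are enzymes of nucleotide supply (5) and E2F factors with other genes of S phase entry (6). All 49 of 49 had a probe set with exactly 1 gene symbol on the Affymetrix HG-U133 Plus 2.0 array, out of 19775 genes with such a probe set, and they held 95 of 54675 probe sets. Total RNA of each culture was hybridised to 1 array, which leaves every value without a replicate error and allows no test; "higher" and "lower" describe these 2 arrays. The labels give no treatment, dose, culture time or number of pDCs, and both groups share the same line; it is not stated there whether pDCs were removed before the RNA was taken. The series asks by which mechanisms pDCs give myeloma cells growth and drug resistance.

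Replication starts at origins that are licensed in G1, when the origin recognition complex ORC, CDC6 and CDT1 load the MCM2 to MCM7 helicase ring on DNA and geminin (GMNN) keeps CDT1 in check afterwards. At S phase entry CDC45 and the GINS complex join the MCM ring to form the active helicase, and the fork is then copied by primase and polymerases with the sliding clamp PCNA, its loader RFC and the single-strand binding protein RPA. Ribonucleotide reductase, thymidylate synthase, thymidine kinase and dUTPase supply the deoxynucleotides. E2F factors, released from RB proteins by cyclin-dependent kinases, switch on many of these genes, and in normal bone marrow most plasma cells have left the cell cycle.

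Most replication genes had a slightly higher signal in the culture with pDCs. Of the 49 members, 37 (75.5%) had a ratio above 0 and 12 below, against 46.7% above 0 among 14408 genes with a signal over the floor, the median signal of an array (115.9 with pDCs, 124.0 alone), on at least 1 array. The median log2 ratio, with pDCs minus alone, was 0.27 for the members (20.2% higher), with the middle of them between 0.01 and 0.41 (25th and 75th percentile), and -0.04 for all those genes. Differences were small: 3 members (6.12%) were at least 1.5-fold higher, against 11.5% of all genes, and 2 (4.08%) at least 1.5-fold lower, against 15.3%. No member reached 2-fold either way, while 3.16% of all genes were at least 2-fold higher and 4.51% at least 2-fold lower. On the brightest probe set of each gene, the share of members past 1.5-fold was thus under the background on both sides. The members differ from all genes in where the bulk of their ratios lies. The higher side depended on how probe sets were combined and on how signals below the floor were treated. The mean over each gene's probe sets kept signals below the floor as measured and floored only the average. With it, 12 of the 49 were at least 1.5-fold higher, against 12.3% of all genes, and 3 lower, against 14.7%. Apart from CDC45 and PRIM2, each of the 12 had a probe set below the floor on an array. The median was taken over floored ratios, without probe sets below the floor on both arrays. With it, 5 were higher, against 9.86%, and 1 lower, against 13.1%. Every member was above the floor on both arrays, and 46 of 49 were also above the 75th percentile of each array (401.1 with pDCs, 397.6 alone). Among 7528 genes that bright, 48.7% had a ratio above 0, 8.57% were at least 1.5-fold higher and 9.30% at least 1.5-fold lower, and the 46 members had 35 above 0, 2 higher and 1 lower by 1.5-fold.

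**Figure D1:**
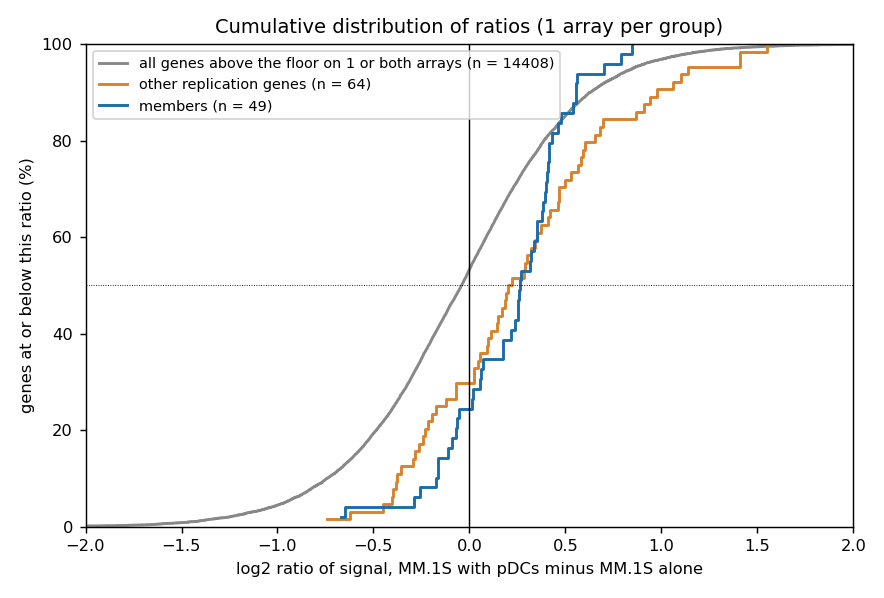
Cumulative percent of genes (y axis) at or below a given log2 ratio of signal, MM.1S with pDCs minus MM.1S alone (x axis), for the 49 members, 64 other replication genes and 14408 genes above the floor; 1 array per group. The curve of the members crosses 50% at 0.27 and that of all genes at -0.04, and the members end at 0.85 while other replication genes reach 1.55.

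Because these genes are known as a group for E2F control, their promoters were searched for 4 spellings of the E2F site, TTTCCCGC, TTTGGCGC, TTTGCCGC and TTTCGCGC, on both strands, in the RefSeq window from 250 bases before to 50 after the gene's start (GRCh38.p14). A window was in the table for 43 of the 49 members, all but MCM4, MCM5, GINS4, RPA2, RPA3 and CCNE2. At least 1 match stood in 19 of the 43 (44.2%), against 3.27% of the windows of 27305 genes and 5.16% of those of 9392 genes above the floor on both arrays. By role these were 6 of 13 licensing, 5 of 14 fork, 3 of 6 polymerase and primase, 1 of 5 nucleotide and 4 of 5 E2F and S phase entry genes. TTTCCCGC and TTTGGCGC each occurred in 9 of the windows, TTTCGCGC in 3 and TTTGCCGC in 1; matches on opposite strands overlapped in MCM2 and MCM6. The 3 members with a match and the highest ratio, and the 1 with the lowest, are shown on the gene's strand, 5′ to 3′, with the match in capitals, so that windows from both ends of the range can be set side by side. CDT1 (chr16:88803539-88803838, plus strand), E2F3 (chr6:20401629-20401928, plus strand) and POLE2 (chr14:49688165-49688464, minus strand) had log2 ratios of 0.56, 0.55 and 0.54, and GINS1 (chr20:25407423-25407722, plus strand) had -0.65.
CDT1: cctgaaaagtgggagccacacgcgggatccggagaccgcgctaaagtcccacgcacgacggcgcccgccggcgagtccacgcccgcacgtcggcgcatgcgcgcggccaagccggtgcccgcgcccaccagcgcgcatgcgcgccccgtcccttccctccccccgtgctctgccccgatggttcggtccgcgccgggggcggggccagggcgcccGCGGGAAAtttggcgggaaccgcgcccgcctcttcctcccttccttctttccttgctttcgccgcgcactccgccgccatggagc
E2F3: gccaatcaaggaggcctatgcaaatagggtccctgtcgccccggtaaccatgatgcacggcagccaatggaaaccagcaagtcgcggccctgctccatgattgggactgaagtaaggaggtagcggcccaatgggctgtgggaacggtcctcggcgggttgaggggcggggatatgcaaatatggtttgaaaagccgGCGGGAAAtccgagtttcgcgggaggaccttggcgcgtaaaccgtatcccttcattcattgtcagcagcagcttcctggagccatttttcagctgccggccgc
POLE2: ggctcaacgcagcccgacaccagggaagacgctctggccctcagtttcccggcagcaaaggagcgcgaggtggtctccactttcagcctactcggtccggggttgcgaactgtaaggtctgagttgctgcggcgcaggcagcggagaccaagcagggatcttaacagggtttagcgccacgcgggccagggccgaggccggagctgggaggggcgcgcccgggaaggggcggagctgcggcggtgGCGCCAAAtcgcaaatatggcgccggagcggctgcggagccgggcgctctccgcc
GINS1: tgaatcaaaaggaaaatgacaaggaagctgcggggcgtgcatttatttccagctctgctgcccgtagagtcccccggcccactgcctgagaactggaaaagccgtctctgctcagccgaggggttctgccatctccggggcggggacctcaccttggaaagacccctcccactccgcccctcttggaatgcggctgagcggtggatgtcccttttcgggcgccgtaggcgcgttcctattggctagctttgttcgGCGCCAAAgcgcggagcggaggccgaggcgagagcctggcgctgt

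Each of the 4 windows held 1 match, read on the opposite strand. CDT1 and E2F3 carry the TTTCCCGC spelling, with the first base of the match as printed at -35 and -53 from the start. POLE2 and GINS1 carry TTTGGCGC, with that base at -5 and 6. Having a match did not go with a higher ratio among the members: the median log2 ratio was 0.27 in the 19 with one (14 above 0) and 0.29 in the 24 without (20 above 0). Over all genes above the floor on both arrays it was 0.05 in the 485 with a match and -0.03 in the 8907 without. A match is a run of letters and not a measured binding site.

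Licensing factors were mostly higher with pDCs, by little. Of 15, 11 (73.3%) had a ratio above 0, against 46.7% of all genes. The median was 0.32, and none was past 1.5-fold. Within ORC, which marks the origins, 5 of 6 subunits were above 0. ORC1, the subunit that comes and goes with the cell cycle, had a signal of 1008 with pDCs and 791 alone (log2 ratio 0.35). ORC3 had 2202 and 1724 (0.35), and ORC4 had 1633 and 1310 (0.32). Another ORC4 probe set, below the floor alone, had 185 and 70.6. ORC6 was at 0.24. ORC5 was at 0.41, and another probe set gave 0.74, but the remaining one, below the floor on both arrays, had 11.7 and 109.8, and the mean over all of them was -0.69. ORC2 was the lowest of the 15, with 424 and 478 (-0.17), but its other probe set had 0.19, so its direction depends on the probe set.

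The loaders of the helicase were higher too. CDT1 had 2019 with pDCs and 1373 alone (log2 ratio 0.56), with 0.16 on its other probe set. CDC6 had 2691 and 2046 (0.40), with 0.46 on its other probe set. Their inhibitor GMNN stood at 8244 and 8790 (-0.09), so the loaders and the inhibitor had ratios on different sides of 0.

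The MCM ring was uneven, with 4 of 6 subunits above 0 although the encoded proteins work as 1 hexamer. MCM5 had 6480 with pDCs and 4860 alone (log2 ratio 0.42), and its other probe set had 0.48. MCM2 had 6574 and 5043 (0.38), and MCM3 had 7391 and 6150 (0.27). The others were near equal on both arrays. MCM7 had 4106 and 4074 (0.01, or 0.31 on its other probe set), MCM6 had 11761 and 12333 (-0.07, or -0.25), and MCM4 had 5593 and 5846 (-0.06). Both further MCM4 probe sets over the floor of each array were positive, at 0.15 and 0.25.

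**Figure D2:**
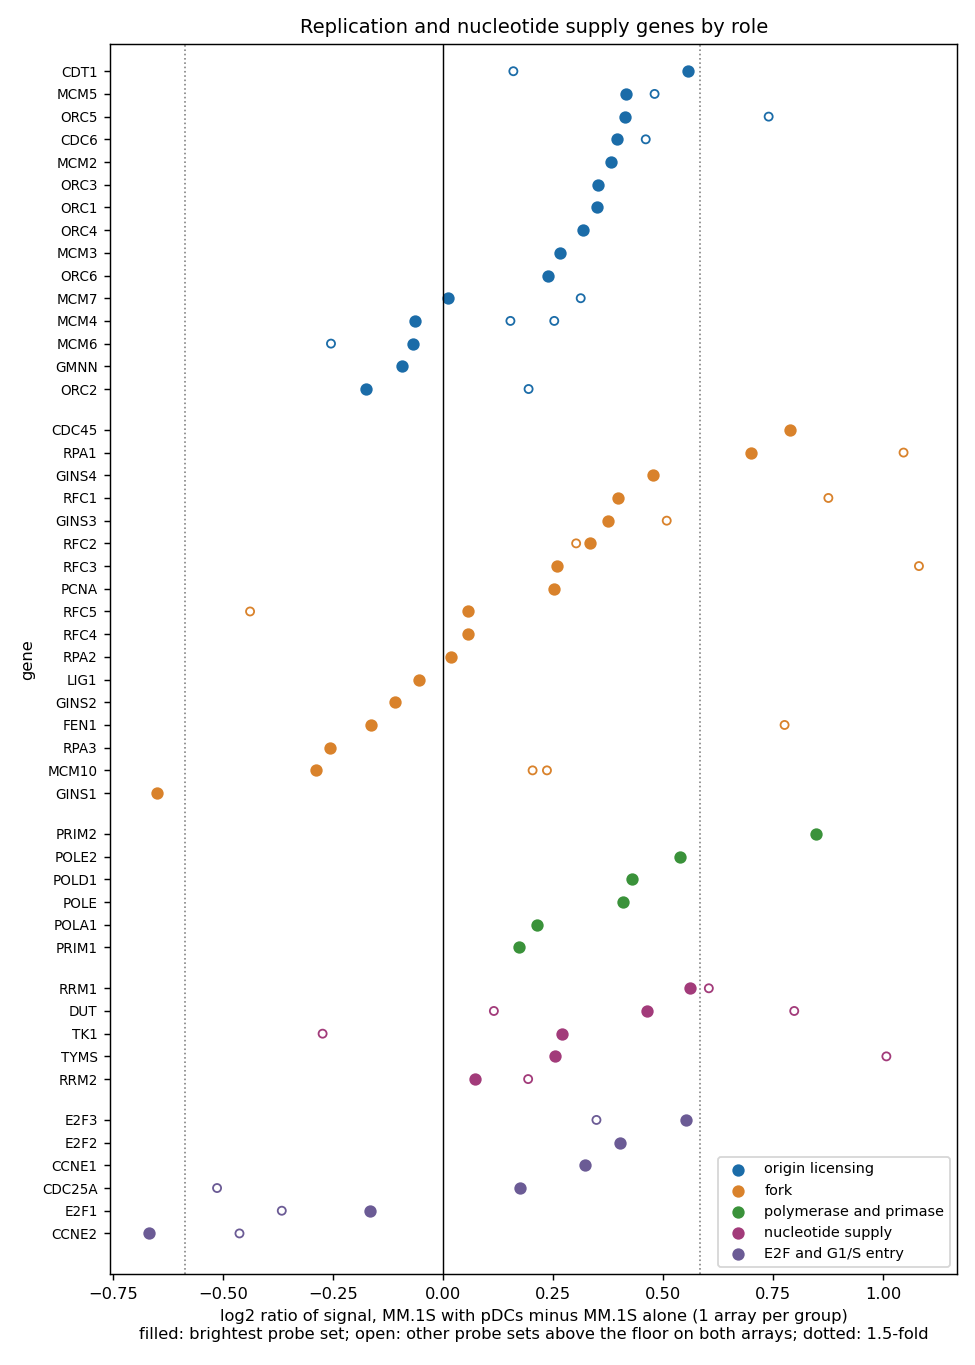
Log2 ratio of signal, MM.1S with pDCs minus MM.1S alone (x axis), for each of the 49 genes (y axis), coloured by role and ordered by ratio within it; filled points are the brightest probe set of the gene, open points its further probe sets over the floor of each array, and dotted lines mark 1.5-fold. All 6 polymerase and primase genes and all 5 nucleotide genes lie right of 0, and fork genes spread from -0.65 (GINS1) to 0.79 (CDC45).

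Fork genes, the largest group, had the widest range of ratios from lowest to highest. Their standard deviation of 0.37 was below the 0.45 of the E2F and S phase entry genes. Of 17, 11 (64.7%) were above 0 and 6 below, against 46.7% of all genes above 0, with a median of 0.06. At least 1.5-fold higher were 2 (11.8%), near the 11.5% of all genes, and 1 (5.88%) was lower, against 15.3%. The fork median was 0.25 with the mean, and also with the median, over each gene's probe sets. CDC45, which completes the active helicase, had 1333 with pDCs and 772 alone and was 1.73-fold higher on its single probe set (log2 ratio 0.79). Its partner complex GINS was split. GINS4 had 355 and 255 (0.48), and GINS3 had 1282 and 988 (0.38, with 0.51 on its other probe set). The further GINS4 probe sets were below the floor alone, and the mean over all GINS4 probe sets was 0.72. GINS2 had 2435 and 2627 (-0.11). Another GINS2 probe set, below the floor with pDCs, had 9.10 and 232. The remaining one, below the floor on both arrays, had 60.3 and 117, and the mean over all 3 was -1.84. GINS1 had 2294 and 3598, which made it 1.57-fold lower (-0.65), on a single probe set as for CDC45. MCM10, which helps to activate the helicase, had 1196 and 1459 (-0.29), but its 2 other probe sets were at 0.20 and 0.24.

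All 5 subunits of the clamp loader RFC were above 0, with a median of 0.26. RFC1, the large subunit, had 2036 with pDCs and 1544 alone (log2 ratio 0.40), with 0.88 on another probe set. RFC2 had 1816 and 1439 (0.34), with 0.30 on its other one. RFC3 had 2238 and 1870 (0.26), and another probe set, at 504 and 238, was past 2-fold (1.08). A further RFC3 probe set, at 45.5 and 30.3, was below the floor on both arrays. On their brightest probe sets the remaining subunits were nearly level. RFC4 had 18099 and 17414 (0.06), and RFC5 had 1008 and 968 (0.06). Another RFC5 probe set had -0.44 and the remaining one, below the floor alone, had 314 and 24.3, and the mean over all 3 was 1.10. PCNA, the clamp itself, had 14556 and 12214 (0.25).

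The subunits of the RPA trimer, which coats single-stranded DNA, went different ways. RPA1 had 5363 with pDCs and 3302 alone and was 1.62-fold higher (log2 ratio 0.70), and another probe set, with 3420 and 1656, had 1.05. The remaining RPA1 one, below the floor alone, had 158 and 28.7, and the mean over all RPA1 probe sets was 1.40. RPA2 had 2986 and 2948 (0.02), and RPA3 had 8114 and 9696 (-0.26). The enzymes that join Okazaki fragments were near level on their brightest probe sets. The flap nuclease FEN1 had 10621 and 11905 (-0.16), against 4299 and 2510 (0.78) on its other probe set, and the ligase LIG1 had 1403 and 1456 (-0.05).

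Polymerase and primase genes were higher in all 6 cases, against 46.7% of all genes, with a median log2 ratio of 0.42. PRIM2, the large primase subunit, was the highest member of all, with 658 with pDCs and 366 alone (1.80-fold, 0.85). The array also carries 4 probe sets annotated to both PRIM2 and its copy PRIM2BP, so this gene is uncertain. PRIM1, the catalytic primase subunit, was the lowest of the 6, with 1975 and 1753 (0.17). POLE2, an accessory subunit of polymerase epsilon, had 902 and 621 (0.54), and POLE, its catalytic subunit, had 753 and 567 (0.41). POLD1, the catalytic subunit of polymerase delta, had 1663 and 1235 (0.43). POLA1, which extends the primers, had 1271 and 1096 (0.21). Each of these 6 rests on 1 probe set with 1 gene symbol.

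All 5 genes of nucleotide supply were above 0, against 46.7% of all genes, with a median log2 ratio of 0.27. RRM1, the large subunit of ribonucleotide reductase, had 11117 with pDCs and 7535 alone (1.48-fold, 0.56), with 0.60 on its other probe set. RRM2, the small subunit made in S phase, was the lowest, with 30258 and 28772 (0.07), and its other probe set had 0.19. The subunits of the same enzyme thus differed in ratio on every probe set measured. TYMS, which makes thymidylate and is the target of fluorouracil, had 33788 and 28344 (0.25), while another probe set, with 9397 and 4675, was past 2-fold (1.01). The remaining TYMS one, below the floor alone, had 163 and 19.4, and the mean over all TYMS probe sets was 1.44. DUT, which keeps uracil out of DNA, had 14634 and 10615 (0.46), with 0.80 and 0.12 on its other probe sets. TK1, the salvage kinase for thymidine, had 2787 and 2312 (0.27) but 2086 and 2521 (-0.27) on its other probe set, so it has no settled direction. The median of the group was 0.37 after loess, 0.46 with the mean and 0.39 with the median over probe sets.

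Among genes of S phase entry, 4 of 6 (66.7%) were above 0, against 46.7% of all genes. Their median log2 ratio was 0.25, or 0.52 with the mean over probe sets. The E2F activators differed: E2F3 had 1699 with pDCs and 1158 alone (0.55, with 0.35 on its other probe set). E2F2 had 4318 and 3270 (0.40). Another E2F2 probe set, below the floor alone, had 202 and 90.7, and the remaining one was below the floor on both arrays. E2F1 had 776 and 870 (-0.16), with -0.37 on its other probe set. The E-type cyclins, partners of CDK2 at S phase entry, stood apart from each other. CCNE1 had 1071 and 857 (0.32), whereas CCNE2 had 300.0 and 477 and was 1.59-fold lower (-0.67). The second CCNE2 probe set had -0.46, and the second CCNE1 one was below the floor on both arrays. CDC25A, the phosphatase that activates CDK2, had 2047 and 1814 (0.17) but -0.51 on another probe set. The remaining one, below the floor alone, had 227 and 42.0, and the mean over all 3 was 0.70.

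**Figure D3:**
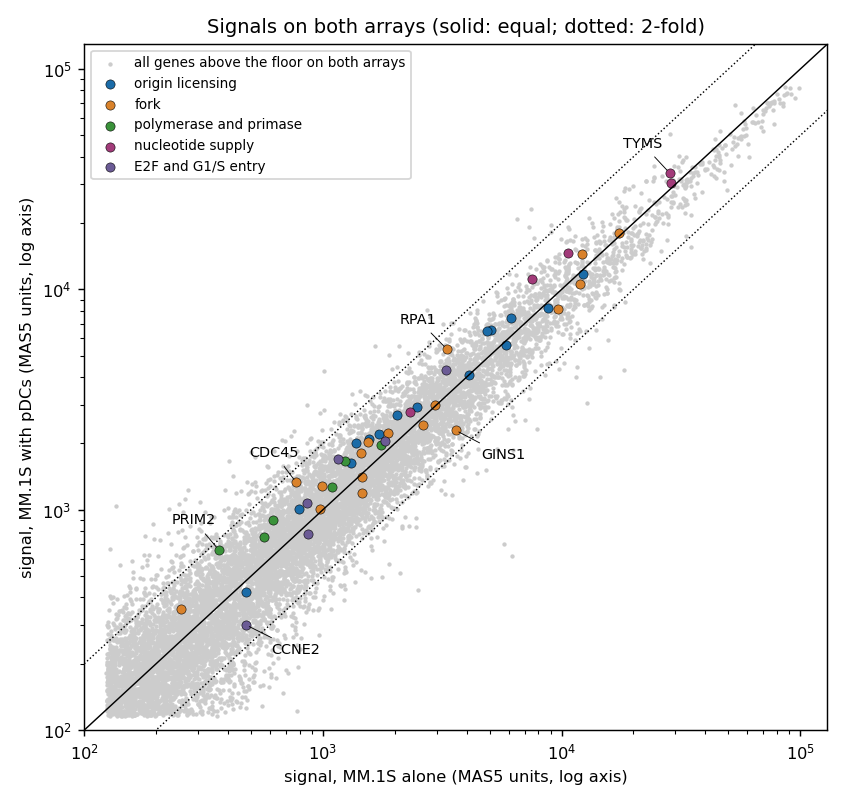
Signal with pDCs (y axis) against signal alone (x axis), in MAS5 units on log axes, for the 49 members coloured by role and, in grey, all genes above the floor on both arrays; the solid line marks equal signals and the dotted lines 2-fold. Members lie between the dotted lines, mostly just above the solid one; PRIM2 (658 against 366) and CDC45 (1333 against 772) are the farthest above it and CCNE2 (300.0 against 477) and GINS1 (2294 against 3598) the farthest below.

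Different probe sets of the same gene gave a check on single values. Of 77 member probe sets over the floor of each array, 59 (76.6%) were above 0, against 49.6% of 19273 such probe sets of all genes. In the 25 members that had 2 or more of these, all had the same sign in 18 (72.0%) and were all positive in 15 (60.0%). Over 4844 genes of all kinds these shares were 49.0% and 24.9%. Members with opposite signs were ORC2, MCM4, MCM10, RFC5, FEN1, TK1 and CDC25A. The range between probe sets of 1 gene had a median of 0.33 in the members, which is larger than their median ratio of 0.27, and 0.56 over all genes.

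The dimmer probe sets were set against the brightest one of each gene. The median of a gene's other probe sets was above its brightest one in 16 of 25 members, by a median of 0.12 (log2), against 54.0% and 0.05 over all genes. Of the 28 other probe sets, 8 (28.6%) were at least 1.5-fold higher, and those of RFC3, RPA1 and TYMS (10.7%) were past 2-fold, while none was 1.5-fold lower. Over all probe sets with 1 gene symbol and a signal over the floor of each array, 13.2% were at least 1.5-fold higher, 12.8% lower and 3.72% at least 2-fold higher. These shares include the brightest probe set of each gene, so they are not a like background for the dimmer ones. Control probe sets along the transcript also differed between the arrays: the signal ratio of 3′ to 5′ control probe sets was 8.09 with pDCs and 19.5 alone for ACTB, and 2.46 and 3.07 for GAPDH. The 5′ control probe sets had log2 ratios of 1.55 and 0.51 and the 3′ ones 0.28 and 0.19, and the part of this difference in the ratios of the members was not tested. With gene span, the length of the gene on the genome, as a split, the members had a median of 0.25 below 29638 bases (25 genes) and 0.35 above (24 genes), against -0.11 and 0.05 for all genes.

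**Figure D4:**
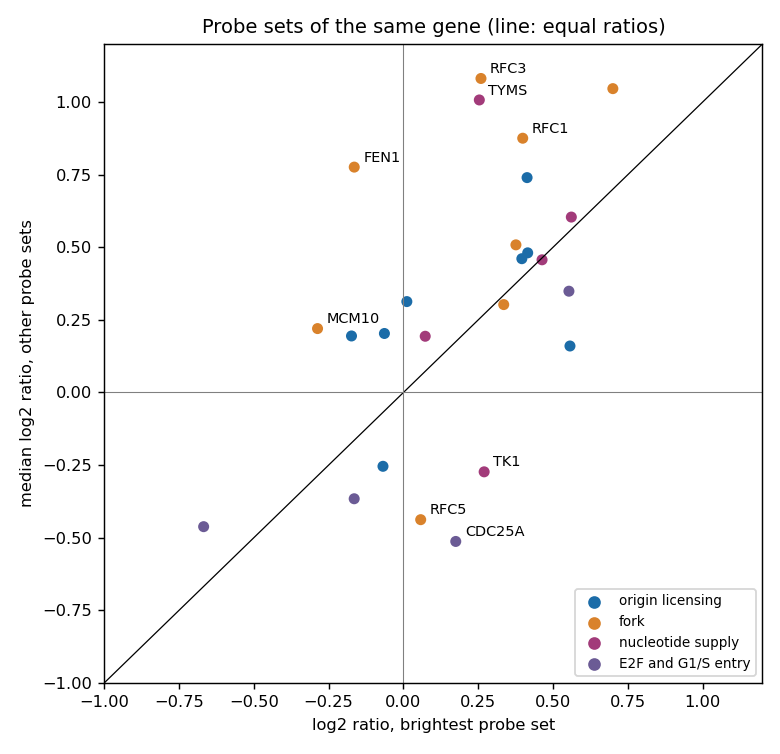
Median log2 ratio of the other probe sets of a gene (y axis) against that of its brightest probe set (x axis), both with pDCs minus alone, for the 25 members that had 2 or more of them above the floor of each array, coloured by role; the line marks equal ratios. FEN1 (0.78 against -0.16), RFC3 and TYMS lie farthest above the line and CDC25A (-0.51 against 0.17) farthest below.

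Other replication genes, from a list of 66 outside the members, held more genes past 1.5-fold than the members did. The list was drawn up with earlier results of these data known, so its shares are no independent check on the members. Of 64 above the floor, 45 were above 0, with a median log2 ratio of 0.21. At 1.5-fold, 15 (23.4%) were higher, against 11.5% of all genes, and 2 (3.13%) lower, against 15.3%; at 2-fold, 6 (9.38%) were higher, against 3.16%, and none was lower. DCK, the kinase that salvages deoxycytidine and activates drugs such as cytarabine, had 2158 with pDCs and 738 alone (2.93-fold) on its single probe set. E2F7, a repressor of the E2F family, had 1559 and 587 (2.65-fold), and a second probe set had a log2 ratio of 0.32. UHRF1, which recruits the maintenance DNA methyltransferase to newly copied DNA, had 5510 and 2079 (2.65-fold) on 1 probe set. CDK2, the S phase kinase, had 1544 and 702 (2.20-fold), while another probe set, with 13.0 and 187, was below the floor with pDCs.

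The genes of this list that follow were named after their values were seen. The pocket proteins RB1, RBL1 and RBL2, which hold E2F factors back, had log2 ratios of 0.65, 1.06 and 0.59. RBL1 had 955 and 459 on that probe set but 184 and 271 (-0.55) on another. Further probe sets, below the floor with pDCs, had 10.9 and 137 for RBL1 and 26.5 and 146 for RB1. A second RBL2 probe set, below the floor alone, had 127 and 12.0. TFDP1, the dimer partner of E2F factors, had 5077 and 2644 (0.94), with 1.69 and -0.66 on its other probe sets. The repressors E2F6 and E2F8 had 0.98 and 0.58, while E2F4, E2F5 and TFDP2, of the same families, were at -0.07, 0.20 and 0.02. Another E2F4 probe set, below the floor alone, had 279 and 91.7, and further TFDP2 probe sets had -0.24 and -0.25. The kinase that fires origins, CDC7, and its activator DBF4 were at 0.50 and 0.53. Lower genes included DHODH, a mitochondrial enzyme of pyrimidine synthesis, with 436 and 729 (-0.74), or -0.09 on another probe set. TICRR, which helps to load CDC45, had 202 and 312 (-0.62), and its other probe set had -0.59.

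Marker lists of other cell types had a lower summed signal on the array with pDCs. For pDCs it was 6978 against 9362 over 14 measured genes, of which 8 were above the floor with pDCs and 10 alone, and the defining markers CLEC4C (61.4 and 6.43) and IL3RA (29.0 and 21.1) were below it on both. TCF4 alone made up 3569 and 4400 of these sums. Of the pDC markers with a ratio, 3 were above 0 and 8 below. LILRA4 (306 and 256), IRF8 (396 and 330) and TLR7 (213 and 96.2, the latter below the floor) were higher with pDCs. At least 2-fold lower were GZMB (174 and 604), PACSIN1 (400 and 928), MAP1A (36.3 and 275) and TLR9 (111 and 260). The signals of MAP1A and TLR9 with pDCs were below the floor, and 4.51% of all genes were at least 2-fold lower. Monocyte markers summed to 562 and 1568 (3 and 5 of 8 above the floor), of which LYZ had 17.0 and 711. T cell markers summed to 463 and 565 (2 and 2 of 7), and NK cell markers to 740 and 824 (4 and 4 of 6). For B cell markers the sums were 977 and 1118 (3 and 4 of 4). Plasma cell markers, all 10 of them above the floor on both arrays, summed to 201791 and 219379. The array with the higher sums is labelled as MM.1S cells cultured alone, so the sums cannot be read as counts of other cells. In bulk RNA, the number of cells of a type and the RNA per cell cannot be told apart. The part of other cells in the ratios of the members was not tested.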

How the data were processed

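RNA of MM.1S cells cultured with pDCs and of MM.1S cells cultured alone was measured on 1 Affymetrix HG-U133 Plus 2.0 array each, with groups read from the titles. The authors deposited 1 linear intensity per probe set, computed by MAS5 per the submitters' processing notes; no source used here gives its version, background step or detection calls. With 2% of probe sets trimmed from each tail, the mean was 500.1 on both arrays, and such scaling would hide a shift shared by most transcripts.

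Of 54675 probe sets, 41091 had 1 gene symbol in the platform annotation, and 41037 of these matched a RefSeq gene. For each gene the probe set of highest mean log2 signal was used, and signals under the median of their array were set to that floor. Ratios are log2, with pDCs minus alone. Size was marked at 1.5-fold (2-fold as the stricter setting), since single arrays give no p-value or standard error; precision is limited by the number of arrays. A median or gene was taken as moved past 0.1 (log2) and a count past 1.5 times.

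All 49 members were named; of the other replication genes, the 4 with the largest ratio past 2-fold were named by rule, and the rest after their values were seen. Members, role groups, marker lists and the list of other replication genes were chosen with earlier results of these data known. Other settings were median centring, quantile normalization, loess (span 0.3), a floor at the 30th percentile, at the 70th, or no floor, the mean or median over a gene's probe sets, and leaving out x_at and s_at probe sets, which can bind several transcripts. The mean used signals as measured and floored the average, while the median used floored ratios. Splits by gene span and by signal were added after seeing the data. Python 3.11.15 with numpy 2.4.6, pandas 2.3.3 and statsmodels 0.14.6 was used, and the ratio calculation was tested on simulated data.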

Additional observations from a re-analysis of the deposited data

How the results depend on the processing

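Over 9 other settings the median log2 ratio of the members stayed above 0 and within 0.1 of 0.27, as it did for members of short span (0.25), of long span (0.35) and of high signal (0.26). Between 75.5% and 81.6% of the members measured were positive, and 35 members were positive and 8 negative in each setting that gave a value. ORC2, ORC5, MCM4, MCM10, FEN1 and TK1 took both signs. None of the 5 members past 1.5-fold as reported changed direction, and 45 of 428 single values moved by over 0.1. Part of this outcome was fixed beforehand. Every member was above the floor on both arrays, so the lower floor and no floor could not change any member value or median. The higher floor changed only the value of GINS4. PRIM2, CDC45 and GINS1 have 1 probe set each, so the mean and median over probe sets could not move them. These settings are therefore no check on those values. Averaging all probe sets, with signals below the floor kept as measured, turned ORC5 to -0.69 and MCM4 to 0.63 and took GINS2 to -1.84. It gave 12 of 49 members at least 1.5-fold higher in place of 3, against 12.3% of all genes. It gave 3 lower in place of 2, against 14.7%, and medians of 0.25 for fork, 0.46 for nucleotide and 0.52 for E2F genes. The median over probe sets gave 5 higher and 1 lower, against 9.86% and 13.1% of all genes. Its medians were 0.25 for fork and 0.39 for nucleotide genes, and loess gave 0.37 for the latter. At 2-fold 0 were higher and 0 lower, and at any size 37 and 12. Searching only the 250 bases before the start left 14 of 19 members with an E2F match. Without s_at and x_at probe sets 36 members remained. The cause of these moves was not tested. No paired analysis was possible because each group has 1 array.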

Other observations

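The 4 probe sets annotated to both PRIM2 and PRIM2BP, which the comparisons leave out, had signals with pDCs and alone of 351 and 289, 185 and 123, 132 and 88.4, and 41.7 and 167. Only the first was above the floor on both arrays; the next 2 were below it alone and the last with pDCs.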
